A study of Oryza brachyantha and Oryza sativa Japonica Group and Oryza glaberrima with 38 samples.

Results

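In seedlings of the wild rice Oryza brachyantha, 6966 of 34160 H3K4me3 intervals on chromosomes 1 to 12 shared no base pair with H3K4me3 of tillering plants. These seedling-only intervals made up 20.4% of the intervals and 8.7% of the base pairs of the seedling H3K4me3 list, which held 34182 intervals over all sequences. They were chosen by comparing the authors' peak lists, from 1 seedling library and both tillering batches, so the absence of tillering H3K4me3 on them is their definition and not a result. The other 27194 seedling intervals overlapped tillering H3K4me3 by at least 1 bp and are called shared here. Of these, 3516 overlapped 1 tillering batch and 23678 overlapped both.

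Chromatin was immunoprecipitated and sequenced (ChIP-seq) from greenhouse plants. The seedling samples were shoots of plants 2 weeks after germination, with 4 g of tissue per experiment, and the tillering samples were aerial tissue 60 days after germination, with 8 g. Seedlings gave lists for H3K4me3, H3K9me2 and a mark labelled H3K27me, whose number of methyl groups the label does not give, and these 3 shared an input control. Tillering batch 1 gave H3K4me3 and H3K4me2, each against a histone H3 control, H3K9Ac against an input, and H3K27me2 and H3K9me2, each against its own input. Tillering batch 2 gave H3K4me3, H3K9me2 and H3K56Ac, which shared an input. The labels do not say whether the batches came from separate plants. No genotype difference or treatment separates the groups, which differ in age and in the tissue harvested. The tissue labels were not checked against marker genes, because the gene table used here carries no product names.

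H3K4me3 is laid down around the beginnings of transcribed genes, on the nucleosomes just downstream of the transcription start. H3K9Ac and H3K56Ac are acetylated forms of histone H3 found at the same active promoters. H3K4me2 covers genes more widely and in plants is also found on genes with little transcription. H3K27me2 is a methylated form of lysine 27, the residue modified by Polycomb complexes at silent genes, and H3K9me2 marks silent heterochromatin and transposons. The lists address whether sites with H3K4me3 in the seedling list alone carried other marks at 60 days.

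A peak list holds only sites that passed the authors' peak calling, so a missing interval means that no peak was listed, not that the mark was absent. In mixed tissue, fewer cells with a mark and less of the mark per cell cannot be told apart. With 1 seedling library, and 1 library for every tillering mark except H3K4me3 and H3K9me2, no test between the stages was possible. Shares are given with 95% Wilson intervals that cover counting error only, and intervals along a chromosome are not replicates. The seedling H3K4me3 list was longer than those of tillering batch 1 (24282 intervals) and batch 2 (26639 intervals), and its peaks scored lower. The median −log10 q, the authors' significance score for a peak, was 7.95 in the seedling list, 53.3 in batch 1 and 18.6 in batch 2. The part that this difference in scores plays in the seedling-only set was not tested.

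The disagreement between the tillering batches is set beside the absence of seedling intervals from the tillering lists. It is not a calibrated scale for that absence. The batches had different H3K4me3 controls, histone H3 in batch 1 and an input in batch 2, and the seedling peaks scored lower than both. Of the seedling intervals, 26.7% were missing from batch 1 and 24.3% from batch 2. Of the batch 2 intervals, 11.8% were missing from batch 1, and of the batch 1 intervals, 7.57% were missing from batch 2. In the other direction, 6.23% of batch 1 intervals and 7.96% of batch 2 intervals were missing from the seedling list. Counted in base pairs, 23.3% of the seedling list lay outside batch 1 and 22% outside batch 2, while 20.1% of batch 1 and 19.3% of batch 2 lay outside the seedling list. The difference between the directions was thus large in interval counts and small in base pairs. Between the batches, 13.9% of batch 2 base pairs lay outside batch 1 and 13.3% of batch 1 base pairs outside batch 2.

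The seedling-only intervals were narrow and weak peaks. Their median width was 234 bp (quartiles 180 and 328 bp, range 151 to 1526 bp), against 701 bp for shared intervals (quartiles 420 and 985 bp, maximum 3960 bp). Their median −log10 q was 3.57 (quartiles 2.58 and 4.96), against 9.84 for shared intervals (quartiles 5.98 and 14.9). The fold over the input control had a median of 2.33 in seedling-only and 3.22 in shared intervals, and the pileup, the height of the stacked fragments, had medians of 28 and 46. Among the stronger 50% of all seedling intervals by −log10 q, 370 of 17129 (2.16%) were seedling-only, and among the weaker 50%, 6596 of 17031 (38.7%). The set is therefore drawn mostly from the weak end of the list.

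**Figure D1:**
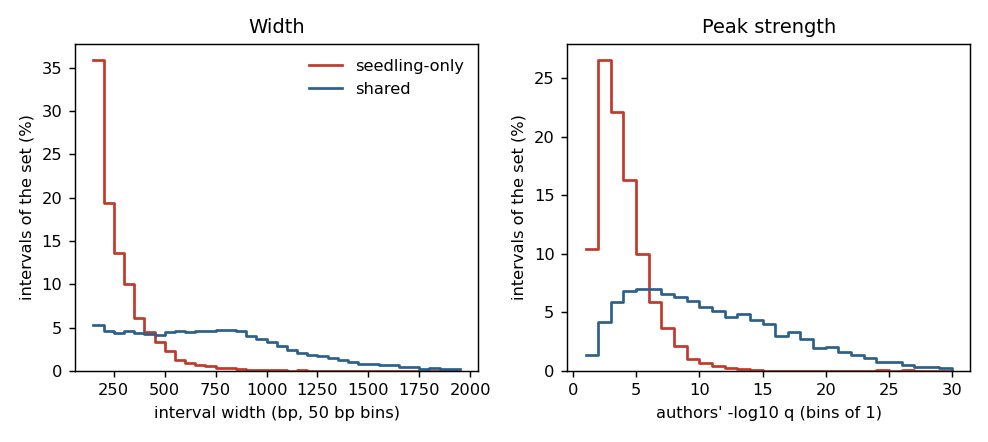
Width in bp (left) and the authors' −log10 q (right) of seedling-only and shared seedling H3K4me3 intervals, as the percent of each set per bin; the horizontal axes are cut at 2000 bp and 30. Seedling-only intervals pile up at the narrow and weak end (medians 234 bp and 3.57), while shared intervals spread to larger values (medians 701 bp and 9.84).

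The rule has a hard edge at a single base pair. On its inner side, 3 members lay directly beside a tillering H3K4me3 peak with no gap: chr1:25356293-25356503 on LOC102709897 (−log10 q 3.65), chr4:14139209-14139369 on LOC102703389 (2.19) and chr9:14562226-14562550 on LOC102716245 (4.58). On its outer side, chr1:12999067-12999251 (−log10 q 3.85), chr1:20017123-20017517 (4.18) and chr6:650137-650531 (7.11) each shared 1 bp with a tillering peak and were left out. The median gap to the nearest tillering H3K4me3 was 1450 bp, and 3.9% of members lay within 100 bp of it. By 500 bp the count was 1842 (26.4%), by 5000 bp 5769 (82.8%), and the largest gap was 189603 bp.

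At 60 days most seedling-only intervals lay under H3K4me2 and few lay under acetylation. Tillering H3K4me2 touched 4611 of them (66.2%, interval 65.1 to 67.3%), against 95.8% of shared intervals and 89.8% of all seedling intervals. Tillering H3K9Ac touched 634 (9.1%, interval 8.45 to 9.8%), against 76.2% of shared intervals and 62.5% of all. Tillering H3K56Ac touched 1018 (14.6%, interval 13.8 to 15.5%), against 81.9% of shared intervals and 68.2% of all. With the stronger 50% of each acetylation mark's peaks, the shares were 1.42% of seedling-only and 52.1% of shared intervals for H3K9Ac, and 2.4% and 57.2% for H3K56Ac. One or both acetylation marks, counting all peaks, were present on 1204 (17.3%), against 84.8% of shared intervals and 71.1% of all. The acetylation shares were thus far below those over the whole list, and the H3K4me2 share was below it by less. Where a mark was present it usually covered most of the interval. At least 50% of the interval lay under H3K4me2 in 61.4% of seedling-only intervals and 80.8% of all, under H3K9Ac in 7.59% and 53.4%, and under H3K56Ac in 11.1% and 57%.

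Apart from the rare H3K9me2, H3K27me2 was the mark whose share differed least between the sets. It touched 2399 seedling-only intervals (34.4%, interval 33.3 to 35.6%), against 40.3% of shared intervals and 39.1% of all. The order turned round in other settings: among the stronger 50% of the seedling list it was on 64.6% of seedling-only and 26.8% of shared intervals. With the batch 2 H3K4me3 list alone defining the set the shares were 40.8% and 38.6%, and with the batch 1 list alone 42.8% and 37.8%. No direction is therefore given for H3K27me2 over the whole set. It covered at least 50% of the interval in 30.7% of seedling-only intervals and 33.4% of all. H3K9me2 of either tillering batch touched 135 seedling-only intervals (1.94%, interval 1.64 to 2.29%), against 0.456% of shared intervals and 0.758% of all. By batch it touched 64 (0.919%) in batch 1, against 0.302% of all, and 130 (1.87%) in batch 2, against 0.65% of all, and it covered at least 50% of 118 (1.69%), against 0.457% of all. In the seedlings themselves H3K9me2 touched 143 seedling-only intervals (2.05%), against 0.799% of all, and H3K27me touched 157 (2.25%), against 1.48% of all. Part of the H3K9me2 count came from intervals of very high pileup, described further on.

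**Figure D2:**
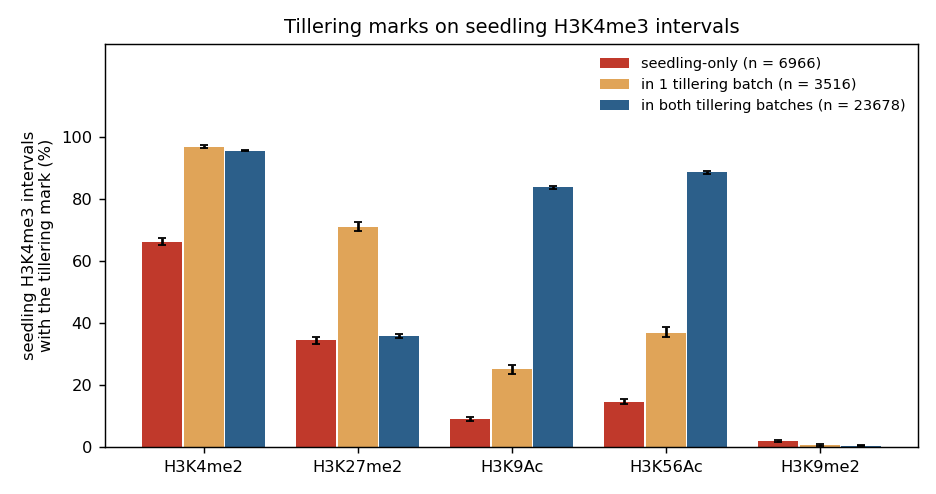
Percent of seedling H3K4me3 intervals with at least 1 bp under each tillering mark, for seedling-only intervals, intervals in 1 tillering H3K4me3 batch and intervals in both batches; error bars are 95% Wilson intervals (counting error). H3K9Ac and H3K56Ac are on 9.1% and 14.6% of seedling-only intervals, against 83.8% and 88.6% of intervals in both batches, while H3K27me2 is highest, at 71.0%, in intervals of 1 batch.

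The 3516 seedling intervals found in 1 tillering batch stood apart from both other sets. H3K4me2 was on 66.2% of seedling-only intervals, on 96.9% of those in 1 batch and on 95.6% of those in both. H3K27me2 was on 34.4% of seedling-only intervals, 71.0% of those in 1 batch and 35.7% of those in both. H3K9Ac was on 9.1%, 25% and 83.8% of the same sets, and H3K56Ac on 14.6%, 36.9% and 88.6%. The acetylation shares therefore stepped up with the number of tillering lists that held the site, and H3K27me2 peaked in the middle set. Peak strength and width stepped up along with them. The median −log10 q was 3.57, 5.05 and 10.9 in these sets, and the median width 234, 354 and 758 bp. The sets were not matched for either, so number of lists and peak strength cannot be told apart here.

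Peaks that differed between the tillering batches are set beside the seedling-only set here. The median width was 234 bp in the seedling-only set, 243 bp in the 3143 batch 2 H3K4me3 intervals missing from batch 1 and 290 bp in the 1839 batch 1 intervals missing from batch 2. Scores of different lists are not on 1 scale, so these sets are not matched for strength. H3K4me2 was on 66.2% of the seedling-only intervals and on 92% of these batch 2 intervals. H3K27me2 was on 34.4% and 65.2%, H3K9Ac on 9.1% and 19.3%, and H3K56Ac on 14.6% and 32.0% of these sets. None of the 5 marks was on 30.6% of seedling-only intervals and on 5.0% of these batch 2 intervals. The batch 1 intervals missing from batch 2 had H3K4me2 on 94.3%, H3K27me2 on 67.3%, H3K9Ac on 40% and H3K56Ac on 49.1%, and none of the 5 marks on 2.07%. Both batch sets come from the same tillering stage as the marks, and partly from the same batch, unlike the seedling intervals.

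Mark shares were next compared within 4 classes of peak strength, holding equal numbers of seedling intervals by −log10 q. In the weakest class, with a −log10 q of 1.3 to 4.42, H3K4me2 was on 59.1% of 4676 seedling-only intervals and on 94.5% of 3864 shared ones. In the third class, from 7.95 to 13.6, it was on 96.5% of 317 seedling-only intervals and on 96.5% of 8225 shared ones. H3K56Ac was on 12.1% of seedling-only and 57.8% of shared intervals in the weakest class, and on 26.2% and 86.7% in the third. H3K9Ac was on 7.44% and 48.7% in the weakest class and on 13.2% and 81.1% in the third. Within these classes the difference in acetylation thus remained, while the difference in H3K4me2 was seen among weak peaks and not in the third class. The classes did not make the sets equal. In the weakest, the median −log10 q was 2.94 in seedling-only and 3.32 in shared intervals, and the median width 221 and 308 bp. In the third class these medians were 9.15 and 10.5, and 355 and 760 bp.

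The H3K27me2 shares of the 2 sets changed order along this scale. The share in seedling-only intervals was 27.1% in the weakest class, 46.5% in the second and 71.3% in the third. In shared intervals it was 60.1%, 62.9% and 41.8% in the same classes, and 12.1% in the strongest. The strongest class held 48 seedling-only intervals, of which 34 had very high pileup. Of the 14 others, 64.3% carried H3K27me2 and 85.7% carried H3K4me2. The H3K27me2 share of seedling-only peaks was thus above that of shared peaks in the third class and below it in the weaker classes.

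**Figure D3:**
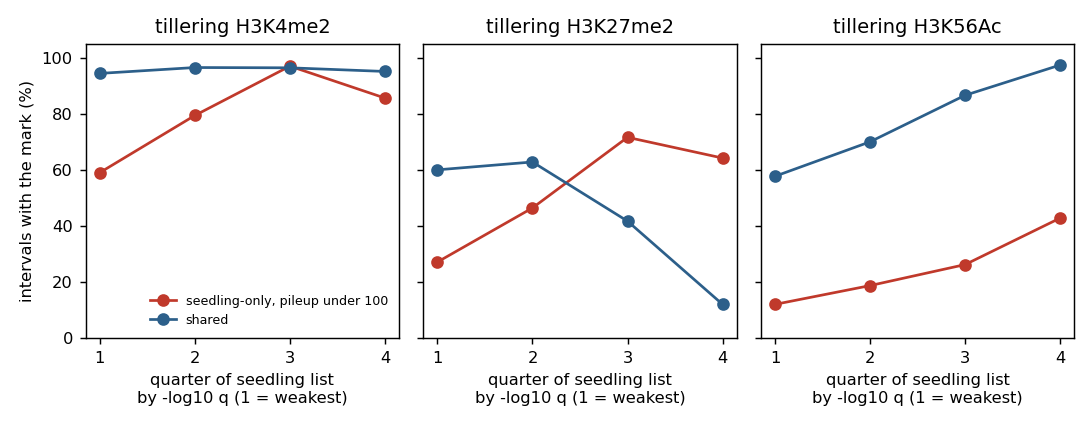
Percent of seedling H3K4me3 intervals under tillering H3K4me2, H3K27me2 and H3K56Ac (vertical axis) in 4 equal classes of the seedling list by the authors' −log10 q (horizontal axis, 1 weakest), for seedling-only intervals of pileup under 100 and shared intervals. The H3K27me2 lines cross between the second and the third class, and the H3K56Ac line of seedling-only intervals stays below that of shared ones in all 4; the strongest seedling-only point rests on 14 intervals.

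By width the H3K27me2 shares also changed order, while H3K4me2 stayed lower in seedling-only than in shared intervals in each class given. H3K4me2 was on 54.5% of the 2539 seedling-only intervals up to 200 bp wide and on 92.2% of the 490 wider than 500 bp. H3K27me2 was on 24.0% and 67.3% of these width classes. Shared intervals up to 200 bp wide carried H3K4me2 in 86.1% and H3K27me2 in 46.8% of cases. Shared intervals wider than 500 bp carried H3K4me2 in 97.3% and H3K27me2 in 33.6% of cases, and H3K9Ac in 84.0%, against 11.6% of the seedling-only intervals of that width. The widest members are given singly, and they differed in acetylation. The widest of all, chr6:20013383-20014908 on LOC102716978, was 1526 bp wide and lay wholly under H3K4me2 (fold 6.36) and H3K27me2 (fold 3.32), with no acetylation. The next, chr3:2438545-2439908 on LOC102712710 with 1364 bp, likewise lay wholly under H3K4me2 (fold 7.28) and H3K27me2 (fold 4.21) without acetylation. The member chr10:9602548-9603884 on LOC102711835, 1337 bp wide, lay wholly under H3K4me2, with 407 bp under H3K27me2, 275 bp under H3K9Ac and 688 bp under H3K56Ac.

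By combination of marks, 3 states held most of the seedling-only set. None of the 5 marks was on 2129 intervals (30.6%), against 0.566% of shared intervals and 6.68% of all. H3K4me2 alone was on 1814 (26%), against 3.89% of shared intervals. H3K4me2 with H3K27me2 and nothing else was on 1646 (23.6%), against 10.6% of shared intervals. H3K4me2 with both acetylation marks, the most frequent state of shared intervals at 48.9%, was on 194 seedling-only intervals (2.78%). The state of 4 marks, with H3K27me2 added, was on 239 (3.43%), against 20.9% of shared intervals. Unmarked members were the narrowest of the 3 large states, with a median of 203 bp and a −log10 q of 3.06. Those with H3K4me2 alone had medians of 233 bp and 3.47, and those with H3K4me2 and H3K27me2 had 286.5 bp and 4.22.

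Single members illustrate each state, chosen by their seedling −log10 q among intervals within 500 bp of the end of a protein-coding gene. The gene table gives no functions for these genes. On LOC107303478, chr1:8128726-8129288 had a seedling fold of 4.99 and a −log10 q of 19.9. It carried H3K4me2 over 540 bp (fold 4.48) and none of the other marks. On LOC102708081, chr8:6188330-6189185 lay wholly under H3K4me2 over its 856 bp (fold 6.47) and under no other mark. That interval covered nearly all of its gene, which runs from 6188282 to 6189136.

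On LOC102704018, chr1:30960284-30960961 covered 1 end of the gene and lay wholly under H3K4me2 (fold 10.6) and H3K27me2 (fold 3.68), with no acetylation. On LOC102719675, chr5:15195746-15196147 lay wholly under H3K4me2 (fold 6.4), with 210 of its 402 bp under H3K27me2 (fold 2.75). Of the members with acetylation, chr8:155809-156507 on LOC102709019 had a seedling fold of 4.94 and a −log10 q of 17.5. It carried H3K4me2 (fold 7.88) over its 699 bp, H3K27me2 (fold 3.91) over 492 bp and H3K56Ac (fold 2.36) over 375 bp. On LOC102718782, chr11:6360605-6360969 carried H3K4me2 (fold 5.62), H3K27me2 (fold 4.13) and H3K9Ac (fold 2.01) but no H3K56Ac. The 2 strongest unmarked members near a gene end were weaker peaks: chr9:14084762-14084938 on LOC102705558 (−log10 q 7.11) and chr1:1535029-1535218 beside LOC102708095 (6.76). Both of these lay within 253 bp of tillering H3K4me3.

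The tillering peaks that lay on seedling-only intervals differed by mark. A peak on both kinds of interval was counted with the seedling-only ones, so peaks on shared intervals here are those on no seedling-only interval. Wide peaks that span both kinds therefore fall in the seedling-only group. The 4254 H3K4me2 peaks on them had a median width of 864.5 bp and a fold of 4.67, close to the 891 bp and 4.05 of H3K4me2 peaks on shared intervals. The 632 H3K9Ac peaks on them had medians of 298 bp and a fold of 2.92, against 673 bp and 7.17 for H3K9Ac peaks on shared intervals. The 1022 H3K56Ac peaks on them had medians of 275 bp and 3.23, against 608 bp and 6.26. Where a seedling-only interval was acetylated at 60 days, then, the acetylation peak was narrower and lower than on shared intervals. This was not particular to the seedling-only set. Peaks on no seedling H3K4me3 had alike medians, 311 bp and a fold of 2.89 for H3K9Ac and 255 bp and 2.99 for H3K56Ac. Of the H3K4me2 peaks on seedling-only intervals, 33.2% also reached a tillering H3K4me3 peak nearby, as did 19.9% of the H3K27me2 peaks. For peaks on shared intervals this share is set by the rule and is not compared.

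Against the gene annotation, most seedling-only intervals lay away from gene ends. An end of an annotated gene lay within 500 bp of 2170 of them (31.2%, interval 30.1 to 32.2%), against 79.3% of shared intervals and 69.5% of all. Among the stronger 50% of the seedling list the shares were 52.7% of seedling-only and 88.1% of shared intervals. Either end was counted, because the table gives no strand, so a start cannot be told from a termination site. Wholly inside a protein-coding gene lay 5229 seedling-only intervals (75.1%), against 62.9% of shared intervals and 65.4% of all. For touching a protein-coding gene the order was the reverse, at 81.2%, 86.3% and 85.3%. A narrow interval fits inside a gene more easily, and the median widths were 234 and 701 bp. Neither set is therefore called more genic. The median distance of these inside intervals to the nearest gene end was 1244 bp in the seedling-only set and 120 bp in the shared set. Of the seedling-only intervals, 553 (7.94%) lay over 2000 bp from any annotated gene, against 4.75% of shared intervals.

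These intervals touched 4628 of 23230 protein-coding genes (19.9%). Of the 4628 genes, 3726 (80.5%) also had tillering H3K4me3 on their body or within 500 bp, and 902 (19.5%) had none. The 3726 genes were long, with a median of 4836 bp, against 3209 bp over all protein-coding genes. The 902 genes were short, with a median of 1872 bp. A gene was counted if any member touched it, so a long gene was more likely to be counted. Gene length was not corrected for. A seedling-only interval was found on 30.5% of the 2953 genes without tillering H3K4me3 and on 18.4% of the genes with it. The first group of genes could hold no shared interval on its body, so the comparison is partly set by the rule. Most genes held a single member (3804), 661 held 2, and 163 held 3 or more. Among other annotations, members touched 75 of 1051 lncRNA genes (7.14%) and 164 of 1082 pseudogenes (15.2%). The larger shared set touched 43.6% and 49.4% of these, and 83.3% of protein-coding genes, against 19.9% for members. These shares are not corrected for the sizes of the sets.

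Sorted by the gene they lay on, the members fell into classes with very different marks. The 1076 on genes without tillering H3K4me3 (15.4% of the set) carried H3K4me2 in 95.7% and H3K27me2 in 67.6% of cases, and 2.7% carried none of the 5 marks. The 4583 on genes with tillering H3K4me3 elsewhere (65.8% of the set) carried H3K4me2 in 54.4% and H3K27me2 in 21.6% of cases, and 42.9% carried none. The 1307 on no protein-coding gene (18.8% of the set) lay between these, with H3K4me2 on 83.3%, H3K27me2 on 52.2% and none on 10.3%. H3K56Ac was on 23.4%, 8.31% and 29.5% of these classes in the same order, and H3K9Ac on 12.1%, 5.69% and 18.6%. Of the 2129 unmarked members, 1966 were on genes with tillering H3K4me3.

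**Figure D4:**
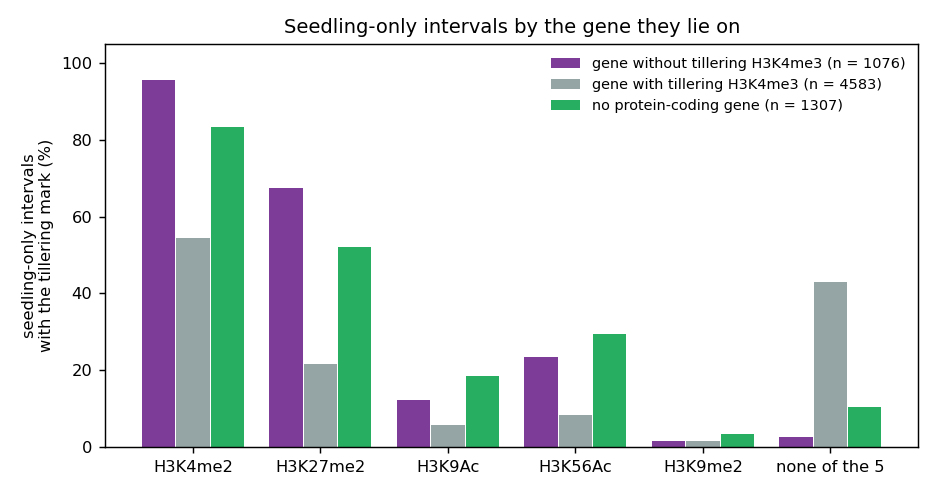
Percent of seedling-only intervals (vertical axis) under each tillering mark, or under none of the 5, for members on protein-coding genes without tillering H3K4me3, on genes with it, and on no protein-coding gene. H3K4me2 and H3K27me2 reach 95.7% and 67.6% on genes without tillering H3K4me3, and 42.9% of members on genes with it carry no mark.

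Peak strength differed between these classes too. Split by strength, the difference in marks was seen among weak peaks and largely not in the third strength class. The median −log10 q was 4.44 on genes without tillering H3K4me3 and 3.37 on genes with it, and the median widths were 294 and 223 bp. In the weakest of the 4 strength classes, H3K4me2 was on 94.2% of 534 members on genes without tillering H3K4me3 and on 48.8% of 3349 on genes with it. H3K27me2 was on 63.5% and 16.4% of the same members. In the second class H3K27me2 was on 71.7% of 431 and 32.0% of 1105 members. In the third class the shares came together, with H3K27me2 on 75.5% of 98 and 71.3% of 122 members, H3K4me2 on 100% and 95.9%, and H3K56Ac on 24.5% and 25.4%. H3K9Ac was on 6.12% and 15.6% there.

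The 902 genes with a seedling-only interval and no tillering H3K4me3 were also compared with the other 2051 protein-coding genes that had no tillering H3K4me3. The lengths of these gene sets were alike, with medians of 1872 and 1960 bp. Tillering H3K4me2 lay on the body of 882 of the 902 genes (97.8%) and of 974 of the 2051 (47.5%). Tillering H3K27me2 lay on 687 (76.2%) and 760 (37.1%) of them. H3K56Ac was on 33.5% and 22.4%, and H3K9Ac on 18.8% and 12.8%. H3K9me2 and seedling H3K27me ran the other way. Batch 1 H3K9me2 was on 1.66% and 9.95%, batch 2 H3K9me2 on 3.44% and 16.0%, and seedling H3K27me on 7.65% and 30.2%. Compared with genes with no H3K4me3 peak of either kind, the 902 genes therefore had higher shares of H3K4me2 and H3K27me2 at 60 days. Their shares of H3K9me2 were lower. Neither the high H3K4me2 nor the low H3K9me2 was particular to them. Genes with tillering H3K4me3, with and without a seedling-only interval, had H3K4me2 on 99.4% and 97.9%. Batch 1 H3K9me2 was on 2.82% and 1.35% of these, and batch 2 H3K9me2 on 3.46% and 1.9%. They had less H3K27me2 (37% and 42.7%) and more H3K9Ac (79.8% and 83.7%) than the 902 genes.

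Some genes carried several members. LOC102702866, on chromosome 7 from 2477141 to 2481161, had no tillering H3K4me3 and held 5 members of 158 to 935 bp, all under H3K4me2 and 4 of them also under H3K27me2. Together with 1 neighbour they formed a run of 6 members within 5.98 kb. LOC102722930, on chromosome 2 from 21418420 to 21427075, also had no tillering H3K4me3 and held 5 members, all under H3K4me2 and 3 also under H3K27me2. The most members on any gene, 7, lay on LOC102718013, a gene of 32398 bp on chromosome 8 with tillering H3K4me3. Of these 7, 6 carried H3K9me2 in batch 1 and 6 in batch 2. These genes were named for their member counts after the values were seen.

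Along the chromosomes, members with no shared interval between them were counted as runs. Of the members, 3931 (56.4%) stood alone and 928 pairs held another 1856. Members were 20.4% of the seedling list, and the runs that random placement would give were not computed. Neither scatter nor clustering of the whole set is therefore claimed. The longest runs were 2 of 12 members and 2 of 8. One run of 8, chr9:14321286-14343328, had all 8 members under H3K4me2 and 6 under H3K27me2. The other, chr9:8802425-8828391, had 3 under H3K4me2 and 0 under H3K27me2. Seedling-only intervals made up 18.9% of the seedling list on chromosome 12 and 22.1% on chromosome 4, with the other chromosomes between. On all 12 chromosomes their shares of H3K4me2 (58.8 to 76.8%), H3K9Ac (6.21 to 11.6%) and H3K56Ac (9.94 to 17.4%) were below those of shared intervals (95.1 to 96.4%, 70.8 to 79.8% and 77.9 to 84.8%). The H3K27me2 shares were also lower on all 12, at 26.8 to 44.8% against 34.8 to 48.2%, an order that turned round among stronger peaks as given above.

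Position relative to tillering H3K4me3 also sorted the marks. H3K4me2 was on 77.1% of members within 500 bp of a tillering H3K4me3 peak, on 60.2% of the next class, up to 1000 bp, on 53.7% up to 2000 bp, on 62.0% up to 5000 bp and on 72.9% beyond. H3K27me2 was on 33.0%, 26.7%, 28.1%, 38.8% and 43.3% of the same classes. Both marks were thus least frequent at middle distances. The median gap was 4560 bp for members on genes without tillering H3K4me3, 880 bp on genes with it and 2740 bp on no protein-coding gene.

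A small group of members had very high pileup. In 40 of them the pileup was 123 to 2431, whereas no other member exceeded 80. The limit of 100 was set after this gap was seen. Their median fold over the input was 1.98, against 2.33 in the whole set, so the pileup of the control was also high there. All 40 lay under H3K9me2 of seedlings and of tillering batch 2, and none lay under H3K9me2 of batch 1, H3K27me2 or acetylation. One lay under H3K4me2. A count of 0 of 40 allows, as a Wilson limit, a share of up to 8.76%. In seedlings and in batch 2 the H3K4me3 and H3K9me2 lists share an input, and in batch 1 H3K9me2 has its own input. The part of the shared inputs in these peaks was not tested. The whole seedling list held 44 intervals with a pileup of 100 or more. Of the 4 that were shared, all 4 lay under H3K9Ac and H3K56Ac, and 1 lay under tillering H3K9me2.

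These 40 intervals lay on 9 chromosomes, and part of them were clustered. A run of 12 lay within 15.6 kb at chr3:16633046-16648605, and 10 lay in another run, chr10:8523326-8546797. They included the peaks with the highest −log10 q beside genes: LOC102705038 (chr10:8539547-8539740, −log10 q 207), LOC102714409 (chr10:11677817-11678125, 149) and LOC102717630 (chr7:4213582-4213758, 117). LOC121053867, LOC102721526, LOC121053784 and LOC121053434 had such peaks as well. Without the 40, tillering H3K9me2 touched 95 of 6926 members (1.37%), H3K4me2 66.6%, H3K27me2 34.6%, H3K9Ac 9.15% and H3K56Ac 14.7%.

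**Figure D5:**
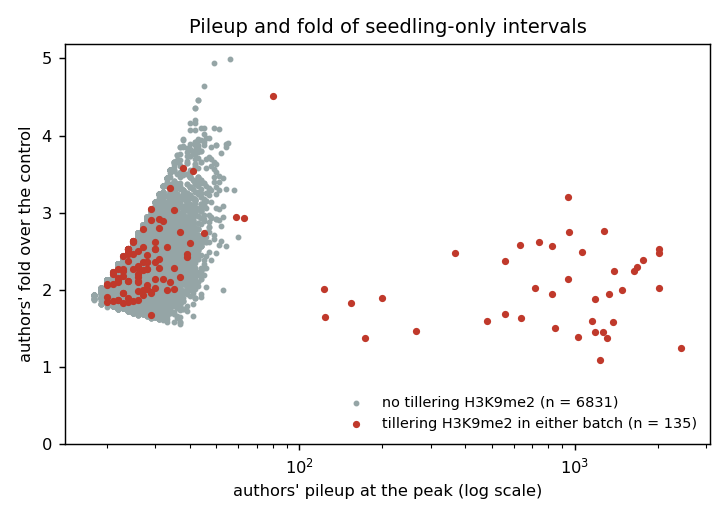
Authors' pileup (horizontal, log scale) and fold over the control (vertical) of each of the 6966 seedling-only intervals, with the 135 under tillering H3K9me2 of either batch in red. The 40 intervals with a pileup of 123 or more are all red and have folds up to 3.21, and the rest lie at or below a pileup of 80.

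Of the remaining members under H3K9me2, the one with the highest −log10 q was chr5:14339052-14339280 on LOC121054561 (24.7, fold 4.52). It lay wholly under H3K9me2 of both tillering batches (fold 2.68 in batch 1 and 2.17 in batch 2) and of seedlings (fold 1.97), and 228 of its 229 bp were under H3K27me2. In all, 59 members carried H3K9me2 in both tillering batches, and 108 of the 135 with tillering H3K9me2 also carried it in seedlings. Seedling-only intervals were not concentrated in H3K9me2-rich chromosome regions. Windows of 100 kb with at least 20% of their length under tillering H3K9me2 made up 17.2% of 2595 windows and held 391 seedling-only intervals (5.61%), against 6.2% of shared intervals.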

How the data were processed

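ChIP-seq peak lists of O. brachyantha were used: 3 from seedlings and 8 from tillering plants. Alignment with Bowtie, peak calling with MACS2 and use of bedtools are named in the submitters' processing notes, without versions, and the lists name the assembly RS2. The calling threshold and the handling of multi-mapped reads are not given in the sources used here. Each deposited list gives, per peak, the authors' pileup as a signal and their −log10 p, fold over the control and −log10 q as joined values. These values describe and rank peaks within a list. Lists hold no read totals, so depth is unknown.

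Intervals were merged within a list, which merged 0 seedling intervals, and compared in base pairs on chromosomes 1 to 12 (Python 3.11.15, pandas 2.3.3, numpy 2.4.6). A mark counted as present from 1 bp of overlap. The overlap code was tested on simulated intervals. Genes came from RefSeq's table for ObraRS2, with 26302 of 27042 genes on these chromosomes. The last peak and the last gene end of each chromosome lay 33 to 8160 bp apart. That table gives no strand, so either gene end within 500 bp was used where a gene start had been planned. It gives no products, so keyword gene lists were not applied, and no sequence is printed. Genes are named for the 10 highest −log10 q within 500 bp of a protein-coding gene end, the top 2 per mark combination, the 3 members nearest the rule's edge on either side and the 3 widest members. The members, the lists and the rules were chosen with earlier results of these data known. H3K36me3, and lists of other species, were not used here.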

Additional observations from a re-analysis of the deposited data

How the results depend on the processing

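No paired analysis was possible because the results come from no test and seedlings have 1 library. With 1 tillering H3K4me3 batch left out, the count was 8314 to 9134, the median width 244 to 256 bp, the share near gene ends 35.9 to 37.0%, H3K4me2 71.3 to 73.4%, H3K27me2 40.8 to 42.8%, H3K9Ac 11.7 to 12.9%, H3K56Ac 19.0 to 19.2% and H3K9me2 1.63 to 1.68%. With 1 H3K9me2 batch left out, H3K9me2 was 0.919 to 1.87%. In the stronger 50% of the seedling list the count was 370, width 352 bp and gene ends 52.7%. Marks there were H3K4me2 87.3%, H3K27me2 64.6%, H3K9Ac 13%, H3K56Ac 24.3% and H3K9me2 11.4%. Its strongest class held 48 members, of which 34 had very high pileup and 35 carried H3K9me2. Without very high pileup, H3K9me2 was on 1.27% of 315 members in the third class and 7.14% of 14 in the strongest. Asking for 50% coverage gave H3K4me2 61.4%, H3K27me2 30.7%, H3K9Ac 7.59% and H3K56Ac 11.1%. Using the stronger 50% of each mark's peaks gave 49.2%, 26.9%, 1.42% and 2.4% for these marks, and 1.52% for H3K9me2. Members over 500 bp from tillering H3K4me3 had H3K4me2 62.3%, H3K9Ac 9.84%, H3K56Ac 16.1% and H3K9me2 2.4%. Gene ends were 44.6% within 1000 bp and 7.16% inside the interval, and 28.8% for protein-coding genes. Without pileups of 100 or more, H3K9me2 was 1.37%. The protein-coding and pileup settings were chosen after seeing the data. Another 17 values moved by less than their interval or by under 1.5 times for counts, and the cause of the moves was not tested. With either H3K4me3 batch left out and at 50% coverage, H3K4me2, H3K9Ac and H3K56Ac were lower in seedling-only than in shared intervals. The same held in the stronger 50% of either list, but H3K4me2 was equal in the third strength class. The lower H3K4me2 share in the stronger 50% of the seedling list included members of very high pileup. Without them H3K4me2 was on 97.1% of 315 seedling-only and 96.5% of shared intervals in the third class. In the strongest class it was on 85.7% of 14 seedling-only and 95.2% of shared intervals. Unknown depth limits every share.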
